A study of Mus musculus with 12 samples.

Results

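The 33 genes described here encode enzymes of cholesterol synthesis and proteins that sense, carry or export sterols. They were taken by name from a given list, and each was represented by the probe set with the highest mean among those with a single gene symbol. Of the 33, 30 had such a probe set in a table that covered 19938 genes, and all 30 lay above a filter on dim genes that left 14953 genes to test. No intensities of Acat2, Nr1h2 and Soat1 were analysed here. Of the 30, 6 act in the mevalonate steps and 11 in the sterol steps, which makes 17 synthesis enzymes. A further 5 control the SREBP transcription factors, 5 belong to LXR signalling and sterol efflux, and 3 move sterols inside cells.

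The values are intensities on 12 GeneChip arrays of RNA from dendritic cells sorted out of collagenase-digested mouse spleens at steady state. The cells were labelled mature cDC1, the branch known for cross-presentation to CD8+ T cells, and cDC2, the branch known for priming CD4+ T cells. Mice were Flt3 KO, lacking the receptor tyrosine kinase FLT3, Flt3L KO, lacking its ligand, or WT. The groups were Flt3 KO cDC1, Flt3L KO cDC1, WT cDC1, Flt3 KO cDC2, Flt3L KO cDC2 and WT cDC2, with 2 arrays each, called biological replicates by the labels. The sources used here give no strain, age, sex, deleted exons or number of mice behind an array. The p-values therefore cover the spread among these 12 arrays, which may be partly technical. These are bulk samples, in which a change in the mix of cells and a change in RNA per cell cannot be told apart.

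Cells build cholesterol from acetyl-CoA by way of mevalonate, farnesyl diphosphate, squalene and lanosterol. When membranes of the endoplasmic reticulum are low in sterol, SCAP carries SREBP proteins to the Golgi for cleavage, and the freed SREBP2 turns on the genes of synthesis. When sterol is plentiful, INSIG1 and INSIG2 hold SCAP back, while oxysterols activate LXR receptors, which turn on genes of cholesterol export. In dendritic cells and macrophages, which take up membranes of other cells, LXR is known for handling the cholesterol of engulfed material.

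Promoter windows of RefSeq, build GRCm38.p6, are shown for the synthesis and INSIG genes that differed between Flt3L KO and WT arrays in the tests below. Each window runs from 250 bases before to 50 bases after the annotated start, 5′ to 3′ on the strand of the gene. A window was in the table for 27 of the 33 genes, and for 5 of the 6 genes chosen for display. The sixth is Sqle. Insig2 has 3 listed starts and Pmvk has 2, and the one listed first is shown. Hmgcs1 lies at chr13:119690101-119690400 on the + strand, Msmo1 at chr8:64733529-64733828 on the - strand and Sc5d at chr9:42264251-42264550 on the - strand. Insig2 lies at chr1:121332540-121332839 on the - strand and Pmvk at chr3:89454291-89454590 on the + strand. Capitals mark 4 motifs, on either strand: the core of a sterol regulatory element (TCACNCC), an E-box (CACGTG), an NF-Y box (CCAAT) and an Sp1 box (GGGCGG).
Hmgcs1: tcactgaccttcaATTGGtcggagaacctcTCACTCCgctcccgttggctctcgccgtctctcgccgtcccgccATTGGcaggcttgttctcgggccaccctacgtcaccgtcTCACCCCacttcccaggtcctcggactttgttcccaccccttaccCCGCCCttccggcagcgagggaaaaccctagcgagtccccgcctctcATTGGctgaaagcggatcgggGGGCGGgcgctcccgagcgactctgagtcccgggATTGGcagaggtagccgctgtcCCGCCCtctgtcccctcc
Msmo1: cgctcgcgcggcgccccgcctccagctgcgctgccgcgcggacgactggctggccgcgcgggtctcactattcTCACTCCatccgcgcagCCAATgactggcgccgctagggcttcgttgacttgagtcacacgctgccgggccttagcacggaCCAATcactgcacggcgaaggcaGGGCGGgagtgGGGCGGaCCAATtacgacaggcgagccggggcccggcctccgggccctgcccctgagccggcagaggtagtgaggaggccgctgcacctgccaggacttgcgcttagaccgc
Sc5d: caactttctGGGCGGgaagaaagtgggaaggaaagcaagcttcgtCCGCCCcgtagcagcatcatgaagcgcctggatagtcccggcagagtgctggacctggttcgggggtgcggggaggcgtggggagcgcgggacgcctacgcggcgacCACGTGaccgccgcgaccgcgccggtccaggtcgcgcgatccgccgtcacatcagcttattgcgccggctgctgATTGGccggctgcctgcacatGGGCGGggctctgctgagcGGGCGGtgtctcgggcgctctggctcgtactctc
Insig2: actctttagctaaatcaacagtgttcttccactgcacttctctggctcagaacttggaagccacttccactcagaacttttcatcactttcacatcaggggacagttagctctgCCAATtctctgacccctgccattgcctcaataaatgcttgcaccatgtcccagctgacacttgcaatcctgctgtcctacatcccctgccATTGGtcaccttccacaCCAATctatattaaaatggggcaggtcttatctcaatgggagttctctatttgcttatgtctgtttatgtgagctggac
Pmvk: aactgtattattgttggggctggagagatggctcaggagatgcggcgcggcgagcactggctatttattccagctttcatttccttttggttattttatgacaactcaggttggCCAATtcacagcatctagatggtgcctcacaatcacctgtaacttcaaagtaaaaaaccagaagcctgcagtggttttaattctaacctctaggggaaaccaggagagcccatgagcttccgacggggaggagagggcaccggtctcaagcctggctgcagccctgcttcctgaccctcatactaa
The Hmgcs1 window holds TCACNCC at positions -220 and -137 from the start, and Msmo1 holds it at -177. Sc5d instead holds CACGTG at -98, and Insig2 and Pmvk hold CCAAT boxes and none of the other 3 motifs in these windows. Over 15 synthesis enzymes with a window, which include Acat2, 13 (86.7%) hold CCAAT, against 37.9% of 27025 windows of all genes. Those 27025 windows were not limited to the 14953 genes tested on the arrays, so dim and unmeasured genes are among them. GGGCGG is in 14 of 15 (93.3%), against 35.9% of all windows. TCACNCC is in 3 of 15 (20%), against 15.6%, and CACGTG in 2 of 15 (13.3%), against 7.24%. These matches describe letters in a window and do not show binding.

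The arrays matched their labels where that could be checked. All 8 cDC1 markers (such as Xcr1 and Clec9a) were higher and all 8 cDC2 markers (such as Sirpa and Irf4) lower in cDC1 than in cDC2, averaged over genotypes. Flt3 was 6.32-fold lower in Flt3 KO than in WT cDC1 and 4.93-fold lower in Flt3 KO than in WT cDC2. Flt3l had 119 and 129 in Flt3L KO cDC1, against 114 and 113 in WT cDC1, and 109 and 118 in Flt3L KO cDC2, against 145 and 149 in WT cDC2 (1.30-fold lower, adjusted p = 0.0267). Whether this probe set lies in the deleted part is not known here, so it does not settle the Flt3L KO labels. Replicate 1 of WT cDC1 stood apart, with a lower quartile of intensity of 25.7 against 23.3 to 24.3 on the other 11 arrays. Over all genes, log2 values of the pair of WT cDC1 arrays differed with an SD of 0.21, against 0.13 to 0.15 for the pairs of the other groups. Of the synthesis enzymes, 14 of 17 had the lower intensity in replicate 1 of WT cDC1, with a median log2 difference between replicates of -0.10. In WT cDC2, 13 of 17 were lower in replicate 1 (median -0.07), whereas 5 to 8 of 17 were in the knockout groups.

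Genes of the sterol pathway differed between the branches in both directions. In cDC1, the enzymes Fdps, Nsdhl and Ebp, the SREBP inhibitor Insig2, the lysosomal sterol carrier Npc2 and the ubiquitin ligase Mylip stood higher than in cDC2. Pmvk, Hmgcs1, Msmo1, Sc5d and Insig1 stood lower in cDC1 than in cDC2, as did the sterol sensor Nr1h3 (LXRα), the exporter Abca1 and the lysosomal membrane protein Npc1. Averaged over genotypes, limma called 22 of the 30 genes at a Benjamini-Hochberg adjusted p under 0.05, 11 higher and 11 lower in cDC1, where 51.6% of all genes were called, 28.1% higher and 23.5% lower. The share of called sterol genes was thus above that of all genes, with no test of the excess, and their median log2 difference was 0.05, against 0.03 for all genes.

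**Figure D1:**
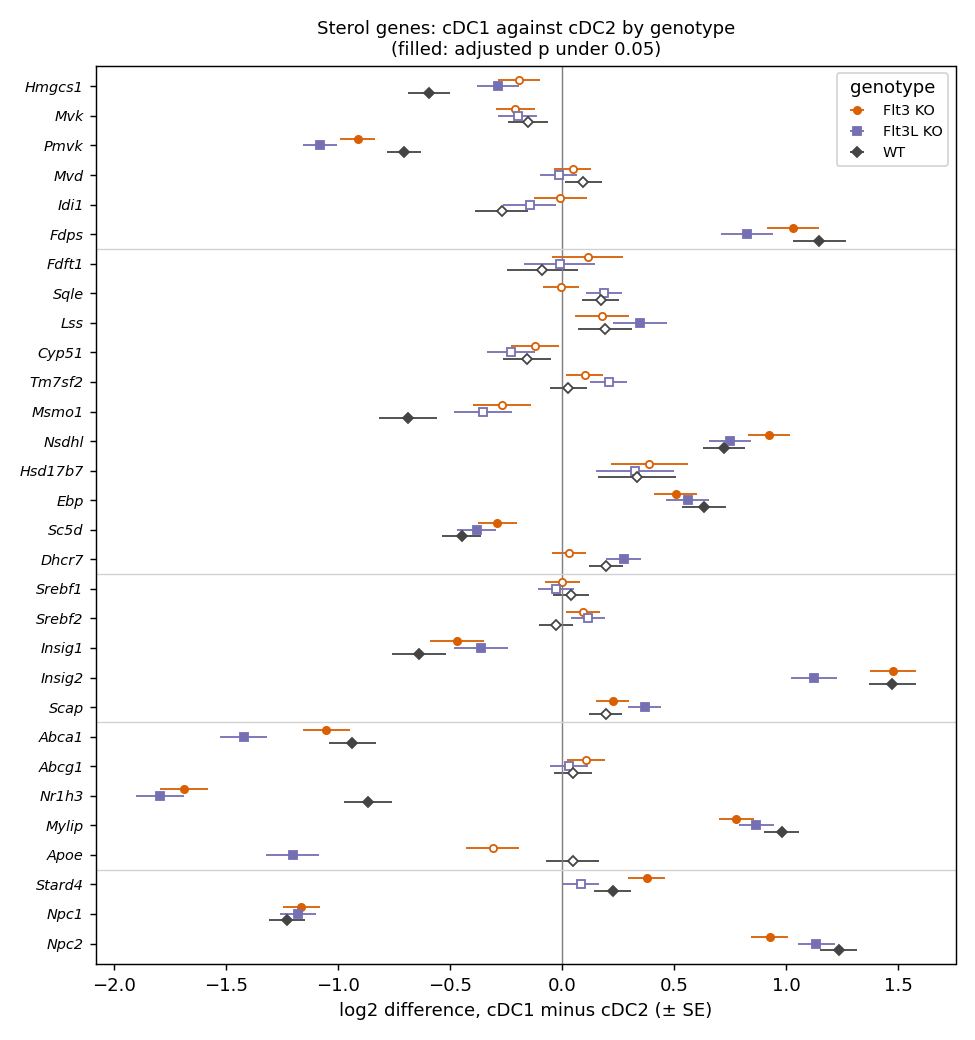
Log2 intensity difference, cDC1 minus cDC2, for the 30 sterol genes in Flt3 KO, Flt3L KO and WT mice. Bars are the standard error and filled points have an adjusted p under 0.05. Insig2, Npc2, Fdps, Mylip and Nsdhl lie to one side of 0 and Nr1h3, Npc1, Abca1 and Pmvk to the other in all 3 genotypes.

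Among the mevalonate enzymes, the members went opposite ways. Fdps, which makes farnesyl diphosphate, ranged from 372 to 465 with a median of 418 on the 6 cDC1 arrays, and from 155 to 249.8 with a median of 212 on the 6 cDC2 arrays. Pmvk, which phosphorylates mevalonate phosphate, ranged from 265 to 288 with a median of 278 in cDC1, and from 448 to 595 with a median of 527 in cDC2. No array of one branch overlapped the other for either gene. The log2 difference, cDC1 minus cDC2, was 1.00 ± 0.07 (SE) for Fdps and -0.90 ± 0.04 (SE) for Pmvk. Hmgcs1, the HMG-CoA synthase that starts the mevalonate steps, differed by -0.36 ± 0.05 and Mvk, the mevalonate kinase, by -0.19 ± 0.05 (SE; adjusted p = 0.00766). Mvd and Idi1 were not called (adjusted p = 0.497 and 0.106).

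In the sterol steps, 5 of 11 enzymes were higher and 3 lower in cDC1, where 28.1% of all genes were higher and 23.5% lower. Nsdhl, a sterol dehydrogenase that helps to remove methyl groups at carbon 4, ranged from 227 to 344 with a median of 268 in cDC1, and from 147 to 181 with a median of 158 in cDC2. Ebp, the sterol isomerase, ranged from 454 to 521 with a median of 481 in cDC1, and from 292 to 370.4 with a median of 336 in cDC2. Neither gene had overlapping arrays, and the log2 differences were 0.80 ± 0.05 and 0.57 ± 0.06 (SE). Hsd17b7, Lss and Dhcr7 were higher by smaller amounts, with log2 differences of 0.35 ± 0.10, 0.24 ± 0.07 and 0.17 ± 0.04 (SE). Msmo1, the oxidase that acts on the same methyl groups as Nsdhl, was lower in cDC1 (-0.44 ± 0.07, SE). By genotype, Msmo1 was called only in WT mice, with a log2 difference of -0.69. Its WT cDC1 arrays had 214 in replicate 1, the array that stood apart, and 286 in replicate 2. The desaturase Sc5d was lower in cDC1 too (-0.37 ± 0.05, SE). Cyp51, the lanosterol demethylase, was lower by a log2 difference of -0.17 ± 0.06 (SE; adjusted p = 0.0361). The Cyp51 call was lost without any one of 6 arrays, with an adjusted p of up to 0.113: Flt3 KO cDC1 replicate 2, Flt3L KO cDC1 replicate 2, WT cDC1 replicate 1, Flt3 KO cDC2 replicate 1, Flt3L KO cDC2 replicate 2 and WT cDC2 replicate 2. Fdft1, Sqle and Tm7sf2 were not called (adjusted p = 0.972, 0.0519 and 0.0633). The averaged log2 difference of Fdft1 was 0.005 with the probe set used and 0.14 with its other probe set.

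The INSIG pair was split between the branches. Insig2 ranged from 194 to 293 with a median of 255 in cDC1, and from 87.2 to 107 with a median of 94.1 in cDC2. Insig1, itself a target of SREBP2, ranged from 241 to 366 with a median of 324 in cDC1, and from 406 to 496 with a median of 453 in cDC2. The ranges did not overlap, and the log2 differences were 1.36 ± 0.06 for Insig2 and -0.49 ± 0.07 for Insig1 (SE). The transcription factors showed little difference: Srebf2 ranged from 1192 to 1353 in cDC1 and from 1138 to 1274 in cDC2, and Srebf1 from 198 to 222 in cDC1 and from 198 to 224 in cDC2. Scap, their escort, was higher in cDC1 by 0.26 ± 0.04 (SE) on the log2 scale.

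Of 5 genes of LXR signalling and sterol efflux, 3 were lower and 1 higher in cDC1 averaged over genotypes (23.5% and 28.1% of all genes). In WT mice 2 were lower and 1 higher (18.4% and 21% of all genes). Nr1h3 ranged from 49.6 to 71.3 with a median of 59.3 in cDC1, and from 104 to 252 with a median of 161 in cDC2. Abca1, which passes cholesterol to lipid-poor apolipoproteins, ranged from 33.2 to 40.4 in cDC1, and from 66.0 to 93.2 in cDC2. Their log2 differences were -1.45 ± 0.06 and -1.14 ± 0.06 (SE), and both genes were dim in cDC1, where array intensities are imprecise. By genotype, Nr1h3 differed by -1.69 in Flt3 KO, -1.80 in Flt3L KO and -0.87 in WT mice. Abca1 differed by -1.05 in Flt3 KO, -1.42 in Flt3L KO and -0.94 in WT mice. Of 13 macrophage markers tested, 7 were lower and 2 higher in cDC1 averaged over genotypes. Their part in the values of Nr1h3 and Abca1 was not tested. Abcg1, which exports cholesterol to HDL, ranged from 338 to 385 in cDC1 and from 324 to 373 in cDC2 and was not called (adjusted p = 0.33). Apoe, the apolipoprotein that accepts exported cholesterol, had an averaged log2 difference of -0.49 ± 0.07 (SE), with log2 differences of -0.31 in Flt3 KO (adjusted p = 0.0615), -1.20 in Flt3L KO (adjusted p = 3.88e-06) and 0.05 in WT mice (adjusted p = 0.784). Mylip, an LXR target whose product marks lipoprotein receptors for degradation, ran the other way, from 1441 to 1634 in cDC1 and from 770.1 to 893 in cDC2, a log2 difference of 0.87 ± 0.05 (SE).

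The lysosomal partners Npc1 and Npc2, which together hand cholesterol out of lysosomes, were also split. Npc2 ranged from 1453 to 1628 with a median of 1529 in cDC1, and from 645 to 819 with a median of 703 in cDC2. Npc1 ranged from 208 to 252 with a median of 213 in cDC1, and from 469 to 544 with a median of 498 in cDC2. With no overlap in either case, the log2 differences were 1.10 ± 0.05 and -1.19 ± 0.05 (SE). Stard4, a cytosolic sterol carrier, was higher in cDC1 by 0.23 ± 0.05 (SE).

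Within single genotypes the same contrast was measured with fewer arrays. In Flt3 KO mice 8 sterol genes were higher and 6 lower in cDC1 (35.5% of all genes called, 19.1% higher and 16.4% lower), in Flt3L KO mice 9 were higher and 8 lower (34.8%, 18.9% higher and 15.9% lower), and in WT mice 7 were higher and 8 lower (39.4%, 21% higher and 18.4% lower). Fdps, Pmvk, Nsdhl, Ebp, Insig2, Nr1h3, Abca1, Mylip, Npc1 and Npc2 were called in each genotype and kept those calls under every alternative run. Some other calls were lost when 1 array was left out, which leaves 1 array in a group. In Flt3 KO mice Scap lost its call without any 1 of the 4 arrays (adjusted p up to 0.145), Sc5d without cDC1 replicate 1 or cDC2 replicate 2 (up to 0.176), and Insig1 without cDC1 replicate 2 or cDC2 replicate 2 (up to 0.103). In Flt3L KO mice Hmgcs1 and Insig1 lost theirs without any 1 of the 4 arrays (up to 0.15 and 0.118), Lss without cDC1 replicate 1 or cDC2 replicate 2 (up to 0.412), and Dhcr7 without replicate 1 of either branch (up to 0.126). In WT mice Stard4 lost its call without cDC1 replicate 2 or without cDC2 replicate 1 or 2 (up to 0.236). Stard4 and Lss also lost these calls under some of the other alternatives.

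The mean of the synthesis enzymes, though not each enzyme, stood slightly higher on every knockout array than on the WT arrays of the same branch. The mean log2 intensity of the 17 enzymes was 7.47 and 7.45 in Flt3 KO cDC1, 7.51 and 7.46 in Flt3L KO cDC1, and 7.19 and 7.34 in WT cDC1. In cDC2 it was 7.41 and 7.35 in Flt3 KO, 7.45 and 7.42 in Flt3L KO, and 7.19 and 7.29 in WT. Both knockouts were set against the same WT arrays, and replicate 1 was the lower WT array in both branches.

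**Figure D2:**
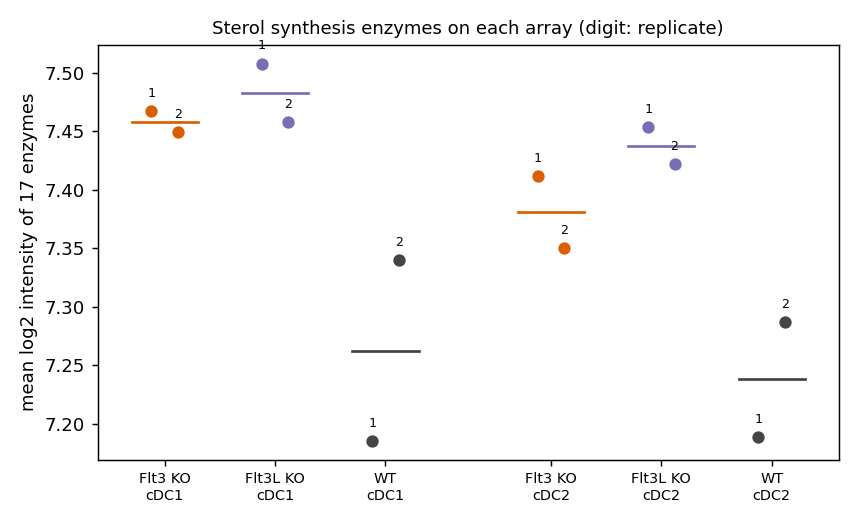
Mean log2 intensity of the 17 synthesis enzymes on each of the 12 arrays, by group, with lines for group means and the digit giving the replicate number. The WT arrays are the lowest of each branch, at 7.19 and 7.34 in cDC1 and 7.19 and 7.29 in cDC2.

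In Flt3L KO cDC1, Hmgcs1 rose and Insig2 fell. These were 2 of 30 sterol genes called, while 1.19% of all genes were called in this comparison, 0.776% higher and 0.415% lower. Hmgcs1 had intensities of 209.7 and 212 in Flt3L KO cDC1, against 136 and 156 in WT cDC1. Insig2 had 194 and 194 in Flt3L KO cDC1, against 252 and 288 in WT cDC1. In both genes the Flt3L KO arrays lay clear of the WT arrays and close to each other. The log2 difference was 0.53 ± 0.09 (SE), or 1.45-fold higher, for Hmgcs1 (adjusted p = 0.0197) and -0.47 ± 0.10 (SE), or 1.39-fold lower, for Insig2 (adjusted p = 0.0494). Neither call held throughout. Without WT cDC1 replicate 2, the called genes were 4: Hmgcs1, Fdft1, Msmo1 and Insig1. Hmgcs1 lost it without Flt3L KO cDC1 replicate 1 or 2 or WT cDC1 replicate 1 (adjusted p = 0.128, 0.0948 and 0.0806), and when only these 4 arrays were fitted (0.19). Insig2 lost it without any 1 of the 4 arrays (adjusted p of 0.054 to 0.234), with no filter on dim genes (0.0695) and when only these arrays were fitted (0.252).

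**Figure D3:**
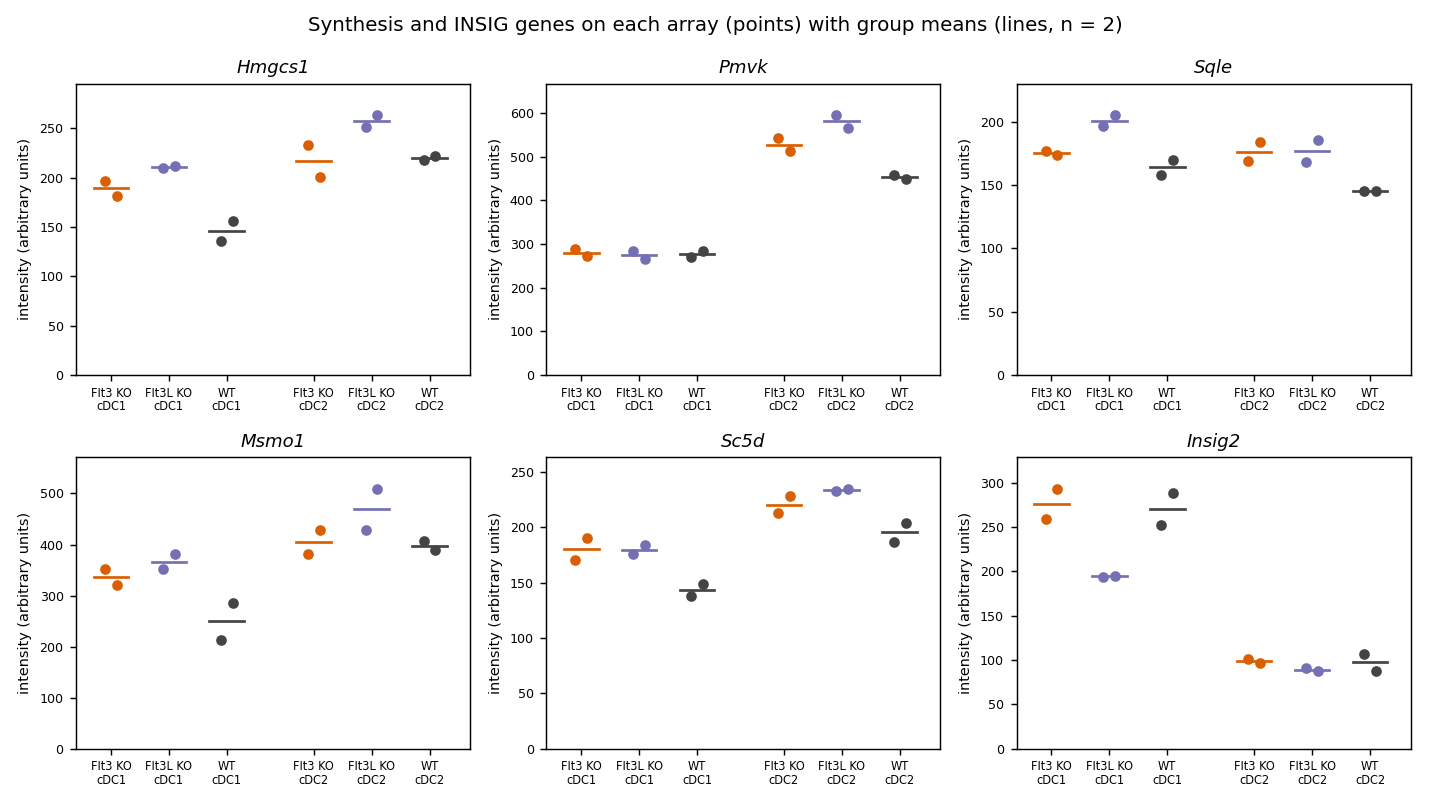
Intensity of Hmgcs1, Pmvk, Sqle, Msmo1, Sc5d and Insig2 on each array, by group, with points for arrays and lines for group means. In cDC1 both Flt3L KO points lie above both WT points for Hmgcs1, Sqle, Msmo1 and Sc5d and below them for Insig2.

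The other enzymes of Flt3L KO cDC1 lay mostly above WT without passing the test. A log2 difference above 0 was found for 15 of the 17 enzymes, against 46.9% of all genes, with a median of 0.23 against -0.01 for all genes. For 11 of the 17 both Flt3L KO arrays exceeded both WT arrays, which held for 21.8% of all genes. Without WT cDC1 replicate 1 the median was 0.17, with 13 of 17 above 0, and without Flt3L KO cDC1 replicate 1 it was 0.13. Msmo1 had 352 and 381 in Flt3L KO cDC1, against 214 and 286 in WT cDC1, a log2 difference of 0.57 ± 0.13 (SE; adjusted p = 0.0567). Sc5d had 176 and 184 in Flt3L KO cDC1, against 138 and 149 in WT cDC1 (adjusted p = 0.0827), and Sqle, the squalene epoxidase, had 196 and 205 against 158 and 169.7 (adjusted p = 0.0956). None of these 3 genes had overlapping arrays. Msmo1 and Sc5d were called with the dimmest share of 0.5 of the genes left out and with a trended, robust prior. Insig1 had 366 and 363 in Flt3L KO cDC1, against 241 and 318 in WT cDC1 (adjusted p = 0.123). Fdft1, the squalene synthase, differed by 0.41 with the probe set used and by 0.18 with its other probe set, while both Idi1 probe sets gave 0.31. Pmvk, Ebp and Nsdhl had log2 differences of -0.02, -0.06 and 0.09.

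In Flt3L KO cDC2 the genes that rose were Nr1h3, Apoe and Pmvk, 3 of 30, while 1.95% of all genes were called, 1.04% as higher. Nr1h3 had intensities of 252 and 204 in Flt3L KO cDC2, against 113 and 104 in WT cDC2. Apoe had 779.7 and 653 in Flt3L KO cDC2, against 423 and 414 in WT cDC2. Pmvk had 595 and 566 in Flt3L KO cDC2, against 457 and 448 in WT cDC2. The arrays did not overlap in any of the 3 genes, and for Nr1h3 and Apoe Flt3L KO replicate 1 was the highest array. The log2 difference was 1.07 ± 0.11 (SE), or 2.10-fold higher, for Nr1h3 (adjusted p = 0.000377), and 0.77 ± 0.12 (SE), or 1.70-fold higher, for Apoe (adjusted p = 0.0065). For Pmvk it was 0.36 ± 0.08 (SE), or 1.28-fold higher (adjusted p = 0.0332). Nr1h3 kept its call under every alternative run, with log2 differences of 0.92 to 1.22. Apoe lost it without Flt3L KO cDC2 replicate 1 or WT cDC2 replicate 1 or 2 (adjusted p = 0.0822, 0.0539 and 0.0708), and Pmvk without any 1 of the 4 arrays (0.092 to 0.225).

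**Figure D4:**
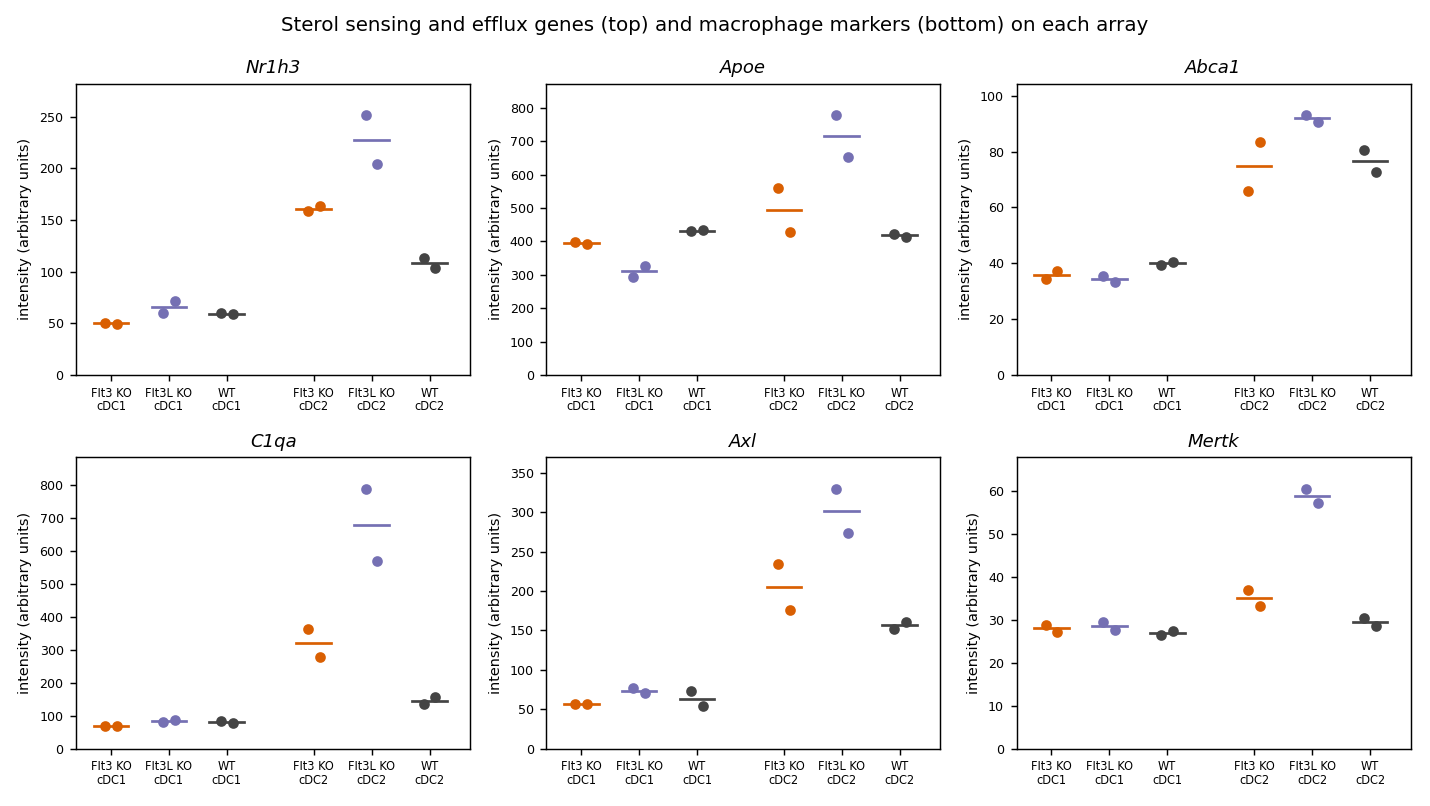
Intensity of Nr1h3, Apoe and Abca1 (top) and of the macrophage markers C1qa, Axl and Mertk (bottom) on each array, by group, with points for arrays and lines for group means. Nr1h3, Apoe and C1qa are highest on the Flt3L KO cDC2 arrays.

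Macrophage markers moved with Nr1h3 and Apoe in cDC2. The summed intensity of 15 listed markers was 2882 to 3402 in Flt3L KO cDC2, 2112 to 2329 in Flt3 KO cDC2 and 1764 to 1861 in WT cDC2. Of the 13 tested, 7 rose and 2 fell in Flt3L KO cDC2, where 1.95% of all genes were called. The 2 that fell were Hpgd, with 378 and 326 in Flt3L KO cDC2 against 583 and 467 in WT cDC2, and Timd4, with 149 and 138 in Flt3L KO cDC2 against 237 and 215 in WT cDC2. C1qa, a chain of complement C1q, had 790.0 and 569 in Flt3L KO cDC2, 363 and 279.8 in Flt3 KO cDC2, and 135 and 157 in WT cDC2. Flt3L KO cDC2 was 4.60-fold above WT for C1qa, with C1qb, C1qc, Vcam1, Mertk, Axl and Hmox1 also higher. Cd163, Marco and Siglec1, by contrast, ranged from 22.8 to 65.8 over all 12 arrays and were not called in Flt3L KO cDC2. In cDC1, where Nr1h3 was not called, the summed intensity was 1162 to 1246 in Flt3L KO and 1427 to 1447 in WT. Of the 13 tested there, 0 were called higher and 2 lower (1.19% of all genes called), with Hpgd and Timd4 lower there too. C1qa had 82.4 and 88.0 in Flt3L KO cDC1, against 84.0 and 78.8 in WT cDC1. Vcam1 had 196 and 202 in Flt3L KO cDC1, against 165 and 157 in WT cDC1. The markers of the branches shifted as well. In Flt3L KO against WT cDC2, 2 of 8 cDC2 markers were called lower and 2 of 8 cDC1 markers higher. The summed intensity of the cDC2 markers was 6851 to 6867 in Flt3L KO cDC2 and 8199 to 8338 in WT cDC2. The part of macrophage RNA, or of a shift in these markers, in the values of Nr1h3 and Apoe was not tested.

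Synthesis enzymes in Flt3L KO cDC2 also lay mostly above WT, and of the 17 only Pmvk was called. Of the 17, 16 had a log2 difference above 0 (55.5% of all genes did), with a median of 0.23 against 0.02 for all genes. Both Flt3L KO arrays exceeded both WT arrays for 11 of 17, which held for 27.2% of all genes. Without WT cDC2 replicate 1 the median was 0.12. Fdps had 246 and 249.8 in Flt3L KO cDC2, against 155 and 204 in WT cDC2, a log2 difference of 0.48 ± 0.12 (SE; adjusted p = 0.06). It was called with quantile normalization, with the dimmest share of 0.5 of the genes left out, with a trended, robust prior and without WT cDC2 replicate 2. Hmgcs1 had 251 and 264 in Flt3L KO cDC2, against 218 and 222 in WT cDC2 (adjusted p = 0.285). Insig2, which fell in Flt3L KO cDC1, had 91.2 and 87.2 in Flt3L KO cDC2, against 107 and 88.1 in WT cDC2 (adjusted p = 0.657).

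Averaging the branches gave more calls for the ligand knockout. In Flt3L KO against WT, 5 sterol genes rose and 1 fell, where 3% of all genes were called, 1.67% higher and 1.33% lower. The risen genes were Hmgcs1 (log2 difference 0.38 ± 0.07, adjusted p = 0.0111), Sqle (0.29 ± 0.06, 0.0193), Sc5d (0.29 ± 0.06, 0.0217), Msmo1 (0.40 ± 0.09, 0.0353) and Nr1h3 (0.60 ± 0.08, 0.0019; all SE), and Insig2 fell by 0.30 ± 0.07 (SE; adjusted p = 0.0497). Of the 17 enzymes 16 had a difference above 0 (51.7% of all genes did), with a median of 0.25 against 0.00 for all genes. Without WT cDC1 replicate 1 that median was 0.15. In the single branches Nr1h3 was called in cDC2 (log2 difference 1.07) and not in cDC1. Of 13 macrophage markers, 6 were called higher and 2 lower in this average, and their part in the Nr1h3 value was not tested. These averages treat cDC1 and cDC2 arrays as independent. Hmgcs1 and Nr1h3 kept their calls under every alternative run (adjusted p up to 0.0476 and 0.0147). With each of the 8 arrays left out in turn, Sqle kept its call only without WT cDC1 replicate 1 or 2 or Flt3L KO cDC2 replicate 1 (adjusted p up to 0.078). Sc5d kept it only without either WT cDC1 array (up to 0.0981), Insig2 only without WT cDC1 replicate 1 or WT cDC2 replicate 2 (up to 0.183), and Msmo1 only without WT cDC1 replicate 2 (up to 0.129). Insig2 also lost its call with no filter on dim genes (0.0706), and Insig2 and Msmo1 when only the arrays compared were fitted (0.0894 and 0.0692). The number of sterol genes called ranged from 2 to 8 over these fits.

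**Figure D5:**
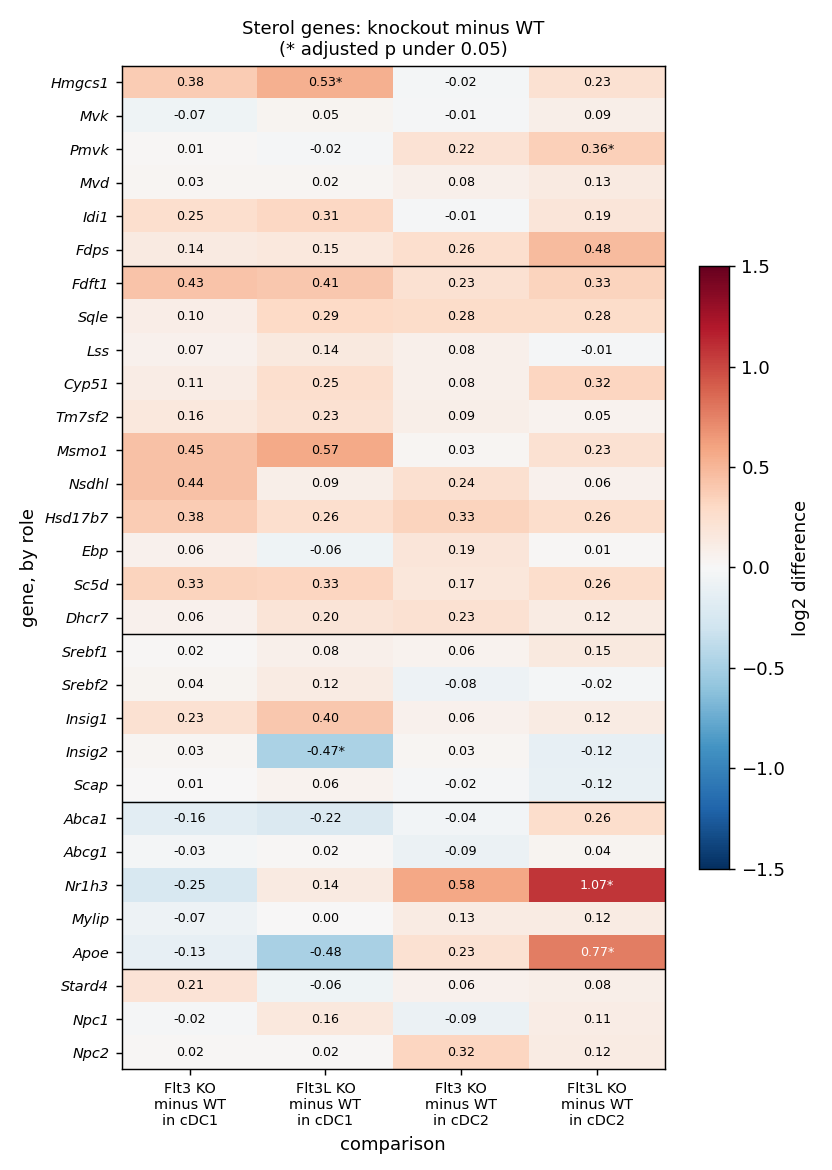
Log2 intensity difference of each knockout minus WT in each branch, for the 30 sterol genes, as a colour scale, with an asterisk at an adjusted p under 0.05. The asterisks mark Hmgcs1 and Insig2 in Flt3L KO cDC1 and Nr1h3, Apoe and Pmvk in Flt3L KO cDC2, and none stands in a Flt3 KO column.

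Loss of the receptor gave no call among the sterol genes. In Flt3 KO against WT, limma called 0 of 30 in cDC1 (0.0803% of all genes called), 0 in cDC2 (0.107%) and 0 averaged over the branches (0.254%). At an unadjusted p under 0.05 the counts were 8, 7 and 12 of 30, against 1873, 1089 and 1521 of the 14953 genes tested. Nsdhl came nearest in cDC1, with intensities of 344 and 324 in Flt3 KO cDC1 against 227 and 268 in WT cDC1, a log2 difference of 0.44 ± 0.09 (SE; adjusted p = 0.155). Hmgcs1 had 197 and 182 in Flt3 KO cDC1, against 136 and 156 in WT cDC1 (adjusted p = 0.205), and Msmo1 had 352 and 321 against 214 and 286 (adjusted p = 0.257). The Flt3 KO arrays lay above the WT arrays for all 3 genes. Without WT cDC1 replicate 2, which leaves the array that stood apart as the only WT cDC1 array, 7 sterol genes were called in cDC1: Hmgcs1, Fdft1, Msmo1, Nsdhl, Hsd17b7, Sc5d and Insig1.

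Most synthesis enzymes of Flt3 KO cells had intensities somewhat above WT without passing the test. In cDC1, 16 of 17 had a log2 difference from WT above 0 (49.4% of all genes), with a median of 0.14 against -0.002 for all genes. For 11 of 17 both Flt3 KO arrays exceeded both WT arrays (20.4% of all genes). Without WT cDC1 replicate 1 the median was 0.07. In cDC2, 14 of 17 were above 0 (54% of all genes), with a median of 0.17, and 8 of 17 had no overlap (22.5% of all genes). Without WT cDC2 replicate 1 that median was 0.06. Nr1h3 had 158 and 164 in Flt3 KO cDC2, against 113 and 104 in WT cDC2, a log2 difference of 0.58 ± 0.11 (SE; adjusted p = 0.0866), and it was called when only these 4 arrays were fitted and with a trended, robust variance prior. In this comparison 2 of 13 macrophage markers were called, both higher, where 0.107% of all genes were called. Their part in the Nr1h3 value was not tested. Npc2 had 819 and 799.2 in Flt3 KO cDC2, against 645 and 648 in WT cDC2 (adjusted p = 0.262).

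The knockouts were then set against each other. In cDC1, Insig2 was the sole sterol gene called, at 194 and 194 in Flt3L KO against 259 and 293 in Flt3 KO, while 0.883% of all genes were called, 0.662% as lower. Its log2 difference was -0.51 ± 0.10 (SE; adjusted p = 0.047), and the call was lost without any 1 of the 4 arrays (0.132 to 0.259), with no filter on dim genes (0.0618) and when only these arrays were fitted (0.0543). Nsdhl had 256 and 269 in Flt3L KO cDC1, against 344 and 324 in Flt3 KO cDC1 (adjusted p = 0.104). In cDC2, 0 of 30 were called (0.93% of all genes called), and 7 had an unadjusted p under 0.05, against 1892 of the 14953 genes tested. Of 13 macrophage markers, 5 were called higher and 1 lower in Flt3L KO than in Flt3 KO cDC2. Their part in the values of Nr1h3 and Apoe was not tested. Nr1h3 and Apoe came nearest among the sterol genes, with log2 differences of 0.49 ± 0.11 and 0.54 ± 0.12 (SE; adjusted p = 0.0574 and 0.0593). Each was called under some alternatives: both with the dimmest share of 0.5 of the genes left out and with a trended, robust prior, Nr1h3 with quantile normalization or without Flt3L KO cDC2 replicate 2, and Apoe without Flt3 KO cDC2 replicate 1.

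For Nr1h3 and Apoe, the difference between Flt3L KO and WT arrays was not the same in the 2 branches. The test of the difference, the Flt3L KO effect in cDC1 minus that in cDC2, called 2 of 30 sterol genes, both with a difference below 0, where 0.495% of all genes were called, 0.247% below 0. Nr1h3 had 59.7 and 71.3 in Flt3L KO cDC1, against 59.5 and 59.1 in WT cDC1, beside the rise in cDC2 given above. Apoe had 294 and 327 in Flt3L KO cDC1, against 432 and 433 in WT cDC1, a log2 difference of -0.48 ± 0.12 (SE; adjusted p = 0.073), which was called with the dimmest share of 0.5 of the genes left out and with a trended, robust prior. Apoe thus lay below WT on both Flt3L KO cDC1 arrays and above WT on both Flt3L KO cDC2 arrays. The difference of effects was -1.25 ± 0.17 (SE; adjusted p = 0.00693) for Apoe and -0.93 ± 0.15 (SE; adjusted p = 0.0208) for Nr1h3. Apoe kept this call under every alternative run. On the same test, 4 of 13 macrophage markers were called, all below 0 (C1qa, C1qb, Vcam1 and Mertk), and 0 of 13 lay above 0, with a median of -0.88 against -0.03 for all genes. Their part in the values of Apoe and Nr1h3 was not tested. Nr1h3 lost its call when only these arrays were fitted (adjusted p = 0.0762) and without Flt3L KO cDC1 replicate 1, Flt3L KO cDC2 replicate 1 or WT cDC2 replicate 1 or 2 (0.0793, 0.069, 0.065 and 0.1). For the receptor knockout, 0 of 30 sterol genes and 0 of all genes passed this test, with 1342 of all genes at an unadjusted p under 0.05. The nearest sterol gene was Nr1h3 at -0.82 ± 0.15 (SE; adjusted p = 0.199), which was called without WT cDC1 replicate 2.

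Other genes of sterol and lipid metabolism, listed beside these 30, were called between the branches more often than between genotypes, as were all genes: 51.6% were called between the branches (28.1% higher and 23.5% lower in cDC1), against 0.0803% to 3% between a knockout and WT. Of 11 fatty acid targets of SREBP1, 7 were higher and 2 lower in cDC1 averaged over genotypes, and 0 were called in Flt3 KO or Flt3L KO against WT in either branch. Fads1, a fatty acid desaturase, was 2.36-fold higher in cDC1, Elovl6, an elongase, 1.90-fold and Fasn, the fatty acid synthase, 1.77-fold, whereas the desaturase Scd2 was 1.93-fold lower. Among 9 other LXR partners and targets, 1 was higher and 3 lower in cDC1. Pltp, the phospholipid transfer protein, ranged from 71.4 to 91.6 in cDC1 and from 406 to 600.4 in cDC2, a 6.06-fold lower level in cDC1. Rxrb, a partner of LXR, rose in Flt3L KO cDC1, with 272 and 281 against 213 and 212 in WT cDC1 (log2 difference 0.38 ± 0.08, SE; adjusted p = 0.0494).

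Of 4 tested genes of oxysterol synthesis and sensing, 2 were higher and 1 lower in cDC1. These small lists, like those that follow, are set against the 28.1% of all genes higher and 23.5% lower in cDC1. Gpr183 (EBI2), the oxysterol receptor that guides cDC2 in the spleen, ranged from 407 to 559.8 in cDC1 and from 1351 to 1797 in cDC2, a 3.54-fold lower level in cDC1. Cyp27a1, the sterol 27-hydroxylase, fell in Flt3L KO cDC2, with 586 and 568 against 816 and 699 in WT cDC2 (log2 difference -0.39 ± 0.09, SE; adjusted p = 0.038). Of 11 genes of sterol uptake, ester hydrolysis and exchange, 4 were higher and 3 lower in cDC1. Scarb1, the HDL receptor, was 1.85-fold higher in cDC1 and the scavenging receptor Lrp1 5.52-fold lower. Of 7 genes of SREBP processing and sterol-regulated degradation, 5 were higher in cDC1 and 0 lower, such as Erlin2 (0.52 ± 0.05) and the coat protein gene Sec24d (0.49 ± 0.05; log2 difference, SE). Of 7 other isoprenoid genes, 4 were higher and 2 lower. Lbr, the lamin receptor that also acts as a sterol reductase, was 1.45-fold lower in cDC1. In Flt3L KO against WT averaged over the branches, 0 of these 6 lists' genes were called, where 3% of all genes were. Leaving out single arrays was not run for genes outside the 30.

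Maturation genes are given beside the enzymes, since the labels call these cells mature. Of 21 tested, 4 rose in Flt3L KO against WT averaged over the branches (Fscn1, Relb, Socs2 and Anxa3), where 3% of all genes were called, and 2 in Flt3 KO (Fscn1 and Anxa3), where 0.254% were. A log2 difference above 0 was found for 16 of 21 in Flt3L KO (51.7% of all genes) and for 21 of 21 in Flt3 KO (51.3% of all genes), with medians of 0.12 and 0.15. For the synthesis enzymes it was 16 of 17 in either knockout. Fscn1, an actin-bundling protein of mature dendritic cells, was 1.51-fold higher in Flt3L KO and 1.40-fold higher in Flt3 KO. Whether the enzymes moved with maturation was not tested.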

How the data were processed

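The deposited table holds 1 intensity per probe set on each of 12 arrays, on a linear scale. Per the labels' protocols, the RNA was amplified with an Ambion WT Expression kit and labelled with biotin. Of how the authors summarised and normalized the deposited intensities, nothing is stated (not given in the sources used here). There are no detection calls, so dim genes are imprecise. Precision is limited by the small number of arrays. Values were log2 transformed with no further scaling. Of 30177 probe sets, 21789 had 1 gene symbol, 1621 had several and 6767 had none here; for 999 genes with more than 1 probe set, the one with the highest mean was used. The dimmest share of 0.25 of genes was left out.

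All 6 groups of 2 arrays were fitted together with limma 3.58.1 in R 4.3.3 (6 residual degrees of freedom), with Benjamini-Hochberg adjustment over all tested genes and a threshold of 0.05. The script was tested on simulated data. Any of the 33 genes could be named, and of each other list those called, up to 4 with the smallest p. Further macrophage markers were named after their values were seen. Members and gene lists were chosen with earlier results of these data known. Alternatives were quantile normalization, other filters, a trended and robust prior, averaging the probe sets of each gene, a replicate block, fits of only the arrays compared, and leaving out each array.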

Additional observations from a re-analysis of the deposited data

Results flagged for a closer look

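The test of the difference between the Flt3L KO effects of the 2 branches picked out 2 sterol genes. For Apoe, the effect in cDC1 minus that in cDC2 was -1.25 on the log2 scale, with intensities below WT on both Flt3L KO cDC1 arrays and above WT on both Flt3L KO cDC2 arrays. For Nr1h3 it was -0.93, with the higher level in Flt3L KO than in WT found in cDC2. Macrophage markers were also higher in Flt3L KO than in WT cDC2, and their part in both values was not tested.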

How the results depend on the processing

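With 2 arrays in a group, the leave-one-out fits leave a lone array that is assumed to vary like the other groups, and dim genes carry no detection call. Of 82 called differences of sterol genes, 63 kept their call under every alternative run, 19 lost it under at least 1 and 0 reversed; the causes were not tested. Quantile normalization gave 1 call in Flt3L KO against Flt3 KO cDC2. With no filter on dim genes, Flt3L KO against WT cDC1 gave 1 call and Flt3L KO against Flt3 KO cDC1 gave 0. With the dimmest share of 0.5 left out, the counts were 1 for Flt3 KO averaged over the branches, 5 for Flt3L KO cDC1 and 2 for Flt3L KO against Flt3 KO cDC2. A trended and robust prior gave those 3 counts too, 1, 5 and 2, and 1 in Flt3 KO cDC2. Fits of only the arrays compared gave 1 in Flt3 KO cDC2, 0 in Flt3L KO cDC1, 0 in Flt3L KO against Flt3 KO cDC1 and 1 for the difference of Flt3L KO effects.

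Leaving out each array in turn gave ranges of calls against WT of 0 to 7 (Flt3 KO cDC1), 0 to 0 (Flt3 KO cDC2), 0 to 1 (Flt3 KO averaged), 0 to 4 (Flt3L KO cDC1), 1 to 2 (Flt3L KO cDC2) and 2 to 8 (Flt3L KO averaged). For Flt3L KO against Flt3 KO they were 0 to 0 in cDC1 and 0 to 1 in cDC2, and for the differences of effects 0 to 1 (Flt3 KO) and 1 to 2 (Flt3L KO). For cDC1 against cDC2 they were 12 to 13 in Flt3 KO, 13 to 15 in Flt3L KO, 14 to 16 in WT and 21 to 23 averaged.

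The labels number the replicates without pairing them, and same-numbered arrays of different groups had correlations of deviations of -0.20 to 0.17. Between cDC1 and cDC2 of the same genotype they were 0.09 in Flt3 KO, 0.15 in Flt3L KO and 0.16 in WT. Between a WT group and a knockout group all were negative, from -0.20 to -0.05. Between groups of different knockouts all were positive, from 0.04 to 0.17. What lies behind these signs was not tested. With the replicate number as a block, Flt3L KO against WT gave 1 call in cDC1 (Hmgcs1), 3 in cDC2 and 5 averaged, Flt3L KO against Flt3 KO gave 0 in cDC1, and Flt3 KO against WT gave 0. Insig2 lost its calls with this block in Flt3L KO against WT cDC1 (adjusted p = 0.0695), averaged over the branches (0.0705) and in Flt3L KO against Flt3 KO cDC1 (0.0614). A crossed block, chosen after seeing the data, gave 0 calls in Flt3 KO cDC1, 0 in Flt3 KO cDC2 and 2 in Flt3L KO cDC1.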
